A study of Mus musculus with 4 samples.

Results

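The genes of cholesterol synthesis, uptake and export were examined in whole kidney of mice after bile duct ligation (BDL), which stops bile from leaving the liver, or after a sham operation. The 30 genes were chosen by name as members of this pathway, and 40 of the 55668 analysed probes carried a RefSeq accession of a member. Kidneys were taken 2 weeks after surgery, with 2 sham and 2 BDL animals, called biological replicates in the design text, and the total RNA of each kidney, carrying the dye Cy3, was read on an Agilent array of its own. The strain, sex and age of the mice are not given in the sources used here, and no transgene or drug is named in the labels of either group. Values are log2 processed signals minus the log2 of the 75th percentile of that array, and every difference is BDL minus sham on that log2 scale. Because brightness also depends on the probe, levels of different member genes were not set against each other, and sums over marker genes serve only to compare arrays. The samples are bulk tissue, in which fewer cells of a type and less RNA per cell cannot be told apart.

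Cholesterol is built from acetyl-CoA by way of mevalonate, farnesyl diphosphate, squalene and lanosterol. The supply is set by SREBP transcription factors, which Scap escorts out of the endoplasmic reticulum when sterols are scarce and which the Insig proteins hold back when sterols are plentiful. Cells also take cholesterol from endosomes through Npc2 and Npc1, store it as esters made by Soat1, and release it through the ABC transporters Abca1 and Abcg1, whose genes are targets of the oxysterol receptor LXR. In cholestasis cholesterol normally discarded in bile is retained in the body, which is the setting of the comparison. The member list holds no lipoprotein receptor, so that uptake is represented here by the endosomal proteins.

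Marker genes showed which tissue was on each array. All 7 proximal tubule markers were well above background on all arrays, with a summed signal (75th percentile of the array = 1) of 1540 to 1860 in sham and 1510 to 1560 in BDL kidneys. Of the 9 adrenal cortex markers, chosen because the adrenal gland is rich in cholesterol synthesis and lies beside the kidney, 5 were well above background on all 4 arrays (Star, Cyp21a1, Hsd3b1, Nr5a1 and Akr1b7), while Mc2r and the steroid hydroxylase genes Cyp11a1, Cyp11b1 and Cyp11b2 were so on none. The sums were 1.26 to 1.54 in sham and 1.36 to 1.41 in BDL kidneys. Of the 8 hepatocyte markers, 6 were well above background on all 4 arrays (Alb, Apoa2, Ttr, Serpina1a, Cyp2e1 and Tat) and Apoa1 and Cyp7a1 on none. They summed to 245 to 348 in sham and 287 to 326 in BDL kidneys. Most of each sum came from Cyp2e1, at 8.38 and 7.83 in sham and 8.11 and 8.30 in BDL kidneys. The next brightest, Apoa2, was 3.36 and 3.14 against 2.71 and 2.92, and Alb was -1.13 and -2.29 against -2.73 and -2.08. The part of adrenal or liver RNA in the results was not tested. The 7 named macrophage markers were well above background throughout, with sums of 59.6 to 69.8 and 56.1 to 62.

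Adipocyte markers set BDL replicate 1 apart. Of the 6 markers, 6 were well above background there, against 5 and 3 in sham kidneys and 1 in BDL replicate 2. Their sums were 12.4 and 29.6 in sham against 102 and 14.2 in BDL kidneys. Most of each sum came from Fabp4, at 3.49 and 4.88 in sham and 6.26 and 3.82 in BDL kidneys. Fabp4 and Lep were higher in sham replicate 2 than in sham replicate 1, whereas Adipoq, Plin1, Cidec and Retn were lower there. Adipoq, the adiponectin gene, read 3.11 in BDL replicate 1 against -1.59 and -6.21 in sham and -7.34 in BDL replicate 2. The part of fat tissue in the values of BDL replicate 1 was not tested. The 10 named interferon response genes summed to 30.4 in sham replicate 1 against 11.7 in sham replicate 2 and 9.26 and 7.05 in BDL kidneys, and the part of that difference in the cholesterol genes was not tested either.

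**Figure D1:**
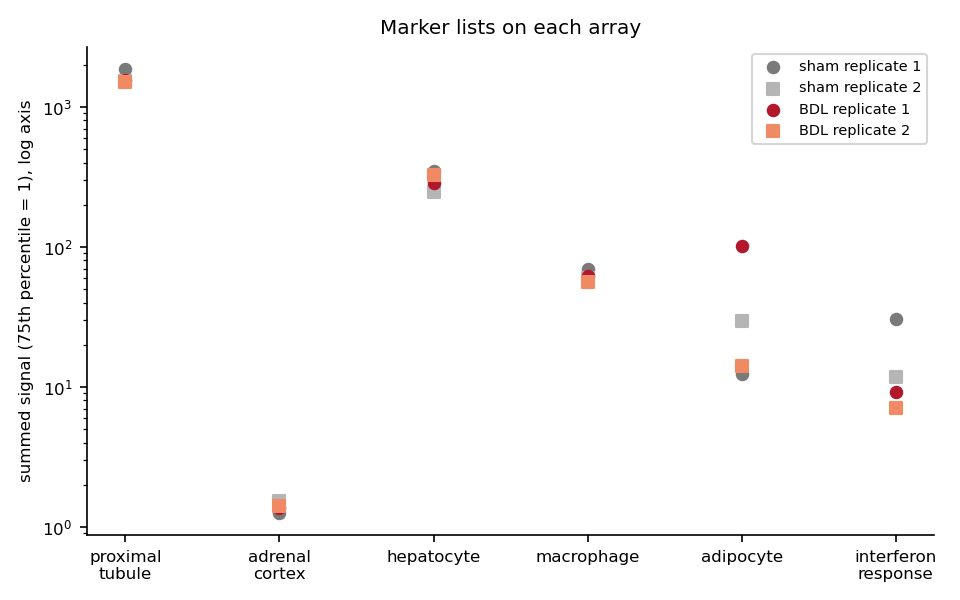
Summed signal of 6 marker lists on each array, with the 75th percentile of an array set to 1 and a log axis. BDL replicate 1 lies at 102 for adipocyte markers, and sham replicate 1 at 30.4 for interferon response genes, while the proximal tubule sums lie between 1510 and 1860. Fabp4 makes up most of the adipocyte sums and Cyp2e1 most of the hepatocyte sums.

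All 30 members were well above background on all 4 arrays through their brightest probe. In BDL kidneys 21 members had the higher mean and 9 the lower, with a median difference of 0.19 against -0.01 over all 24044 features, of which 48.5% had the higher mean in BDL. No member passed the threshold of 0.05 (limma, Benjamini-Hochberg over all features, smallest adjusted p = 0.860 for Fdps and Fdft1), nor did any other feature, so that the background of passing features was 0%. At an unadjusted p under 0.05 stood 2 members, both higher in BDL, beside 2.58% of all features in that direction, and 0 members were lower at that level, beside 3.04% of all features. The BDL animals both exceeded the sham animals in 12 members, where 17.3% of all features did so, and were both lower in 1 member, where 19.3% did. On the brightest probe of each gene the widest difference was 1.56-fold. The members were chosen with earlier results of these arrays known, so the counts describe the list and carry no test. The median of the members was 0.28 without BDL replicate 1 and 0.26 without sham replicate 1. It was 0.16 without sham replicate 2 and 0.15 without BDL replicate 2. Members higher without overlap numbered 19 without sham replicate 1, where 34.9% of all features were. They numbered 18 without BDL replicate 1 (28.6% of all features), 13 without sham replicate 2 (35.8%) and 13 without BDL replicate 2 (31.8%). Without BDL replicate 1, the array with high adipocyte genes, the difference was 0.51 for Fdft1, 0.54 for Fdps and 0.31 for Stard4.

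**Figure D2:**
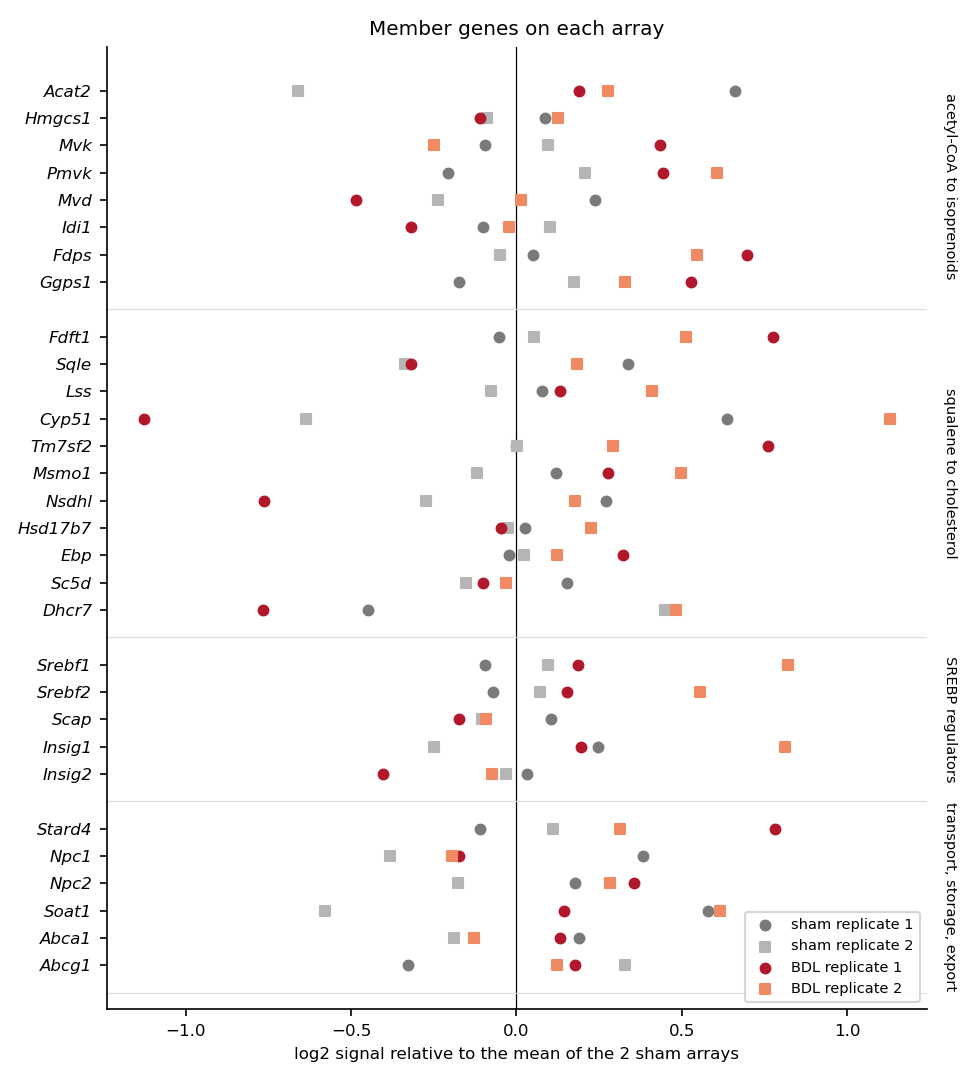
Member genes in order of their place in the pathway. Each point is 1 array, and the horizontal axis is the log2 signal minus the mean of the 2 sham arrays of that gene. Fdps, Fdft1 and Stard4 show both BDL points to the right of both sham points, while Cyp51 spreads from -1.13 to 1.13 around the sham mean without any separation of the groups.

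Of the 8 enzymes between acetyl-CoA and the isoprenoid diphosphates, 6 had the higher mean in BDL and 3 of them did so without overlap, where 48.5% and 17.3% of all features did. Fdps, which joins isoprenoid units into farnesyl diphosphate, was 2.63 and 2.53 in sham kidneys against 3.28 and 3.12 in BDL kidneys. Both BDL animals lay well above both sham animals, and the gap between the groups was wider than the gap within either. The difference was 0.62, or 1.54-fold (SE 0.19, 95% interval 0.11 to 1.14, limma adjusted p = 0.860).

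Pmvk, the kinase that adds the second phosphate to mevalonate, was 2.97 and 3.39 in sham and 3.62 and 3.79 in BDL kidneys. Its difference was 0.52 (SE 0.24, limma adjusted p = 0.872). Ggps1, which makes geranylgeranyl diphosphate for protein prenylation rather than for sterols, was 1.11 and 1.46 in sham and 1.81 and 1.61 in BDL kidneys. Its groups stayed apart with a difference of 0.43 (SE 0.23), on the brighter of its probes only. Without sham replicate 1 the difference was 0.32 for Pmvk and 0.25 for Ggps1.

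The other enzymes of this stretch overlapped between the groups. Hmgcs1, which condenses acetyl-CoA units ahead of mevalonate, was nearly level, with 7.02 and 6.85 in sham and 6.82 and 7.06 in BDL kidneys. Its difference was 0.01 with a 95% interval from -0.55 to 0.56, so a moderate shift either way was not detectable. Mvk, the mevalonate kinase, differed by 0.09 (SE 0.30), Mvd, the decarboxylase that yields isopentenyl diphosphate, by -0.24 (SE 0.29) and Idi1, the isomerase of that product, by -0.17 (SE 0.22). Acat2, in mouse a cytosolic thiolase at the entry of the pathway, differed by 0.23 (SE 0.48), with 2.88 and 1.55 in sham kidneys against 2.41 and 2.49 in BDL kidneys. The spread came from the sham pair. A close copy of this gene, Acat3, is annotated in the mouse, so the value of Acat2 is uncertain.

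Among the 11 enzymes from squalene to cholesterol, 7 had the higher mean in BDL and 5 of them did so without overlap, beside the same 48.5% and 17.3% of all features. Fdft1, squalene synthase and the committed step towards sterols, was 0.67 and 0.77 in sham kidneys against 1.50 and 1.23 in BDL kidneys. The sham animals were close together and both BDL animals lay above them. The difference was 0.64, or 1.56-fold (SE 0.21, 95% interval 0.09 to 1.19, limma adjusted p = 0.860).

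Tm7sf2, a sterol reductase that acts after lanosterol demethylation, was 2.40 and 2.41 in sham kidneys and 3.17 and 2.70 in BDL kidneys. The sham pair was almost identical and the difference was 0.53 (SE 0.24, adjusted p = 0.872 in limma). Msmo1, an oxidase that begins the removal of the paired methyl groups of the sterol ring, was 3.19 and 2.95 in sham and 3.34 and 3.56 in BDL kidneys, a difference of 0.39 (SE 0.21). The separation rested on a narrow margin between sham replicate 1 and BDL replicate 1.

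Lss, which closes the ring to lanosterol, was -0.64 and -0.80 in sham and -0.59 and -0.31 in BDL kidneys, a difference of 0.27 (SE 0.21). Ebp, the sterol isomerase, was 5.63 and 5.68 in sham and 5.97 and 5.77 in BDL kidneys, a difference of 0.22 (SE 0.20). In both genes the nearest animals of the groups lay closer to each other than the BDL animals did. Without BDL replicate 1 the difference was 0.12 for Ebp and 0.29 for Tm7sf2, and without BDL replicate 2 it was 0.13 for Lss.

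The remaining enzymes overlapped. Cyp51, the lanosterol demethylase, was 1.47 and 0.20 in sham kidneys and -0.29 and 1.96 in BDL kidneys. Its group means were equal to within 0.01, while the BDL animals differed from each other by 2.25, the widest gap within a group among the members. The 95% interval of its difference ran from -2.32 to 2.32, so that a sizeable shift was not detectable with these arrays.

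Dhcr7, the reductase that yields cholesterol from its last precursor, was 0.34 and 1.23 in sham kidneys and 0.02 and 1.27 in BDL kidneys. Here replicate 2 was the higher animal in both groups. Nsdhl, a dehydrogenase that acts with Msmo1, differed by -0.29 (SE 0.41), Sqle, squalene epoxidase, by -0.07 (SE 0.33), Sc5d, a sterol desaturase, by -0.07 (SE 0.21) and Hsd17b7, a ketosteroid reductase of that same demethylation, by 0.09 (SE 0.21). Over all 19 enzymes the median difference was 0.09, and the value depended on the array set, with 0.25 without sham replicate 1, 0.19 without sham replicate 2 and 0.28 without BDL replicate 1.

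**Figure D3:**
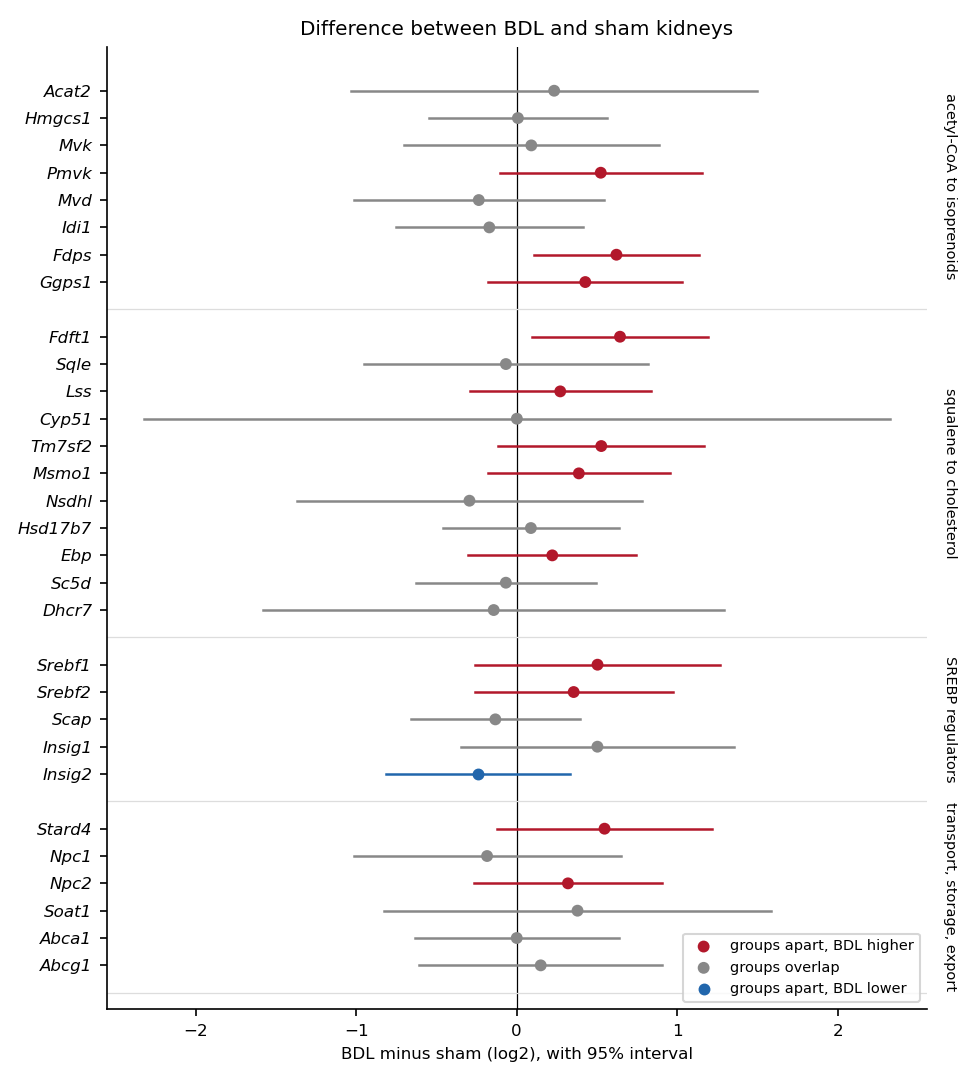
Difference between BDL and sham kidneys for the 30 members on the log2 scale. Points are differences of group means, lines are 95% intervals of the limma fit, and colour shows whether the 2 animals of each group lay apart. Intervals of Fdps and Fdft1 lie above 0 before adjustment, and that of Cyp51 runs from -2.32 to 2.32.

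The spread between animals was often wider than the difference between the groups, in the members much as over all features. The wider of the gaps within the 2 groups exceeded the difference between the group means in 22 of 30 members (73.3%), beside 77.3% of all features. Sham replicate 1 lay above sham replicate 2 in 11 of the 19 synthesis enzymes and BDL replicate 2 above BDL replicate 1 in 13, and both held in 10, where 26.6% of all features did so. Sqle was one of them, with 3.85 and 3.18 in sham and 3.20 and 3.70 in BDL kidneys. Nsdhl followed with 2.74 and 2.20 against 1.71 and 2.65, and Mvd with 3.12 and 2.64 against 2.39 and 2.89. In each of these the highest value was that of sham replicate 1, followed by BDL replicate 2.

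**Figure D4:**
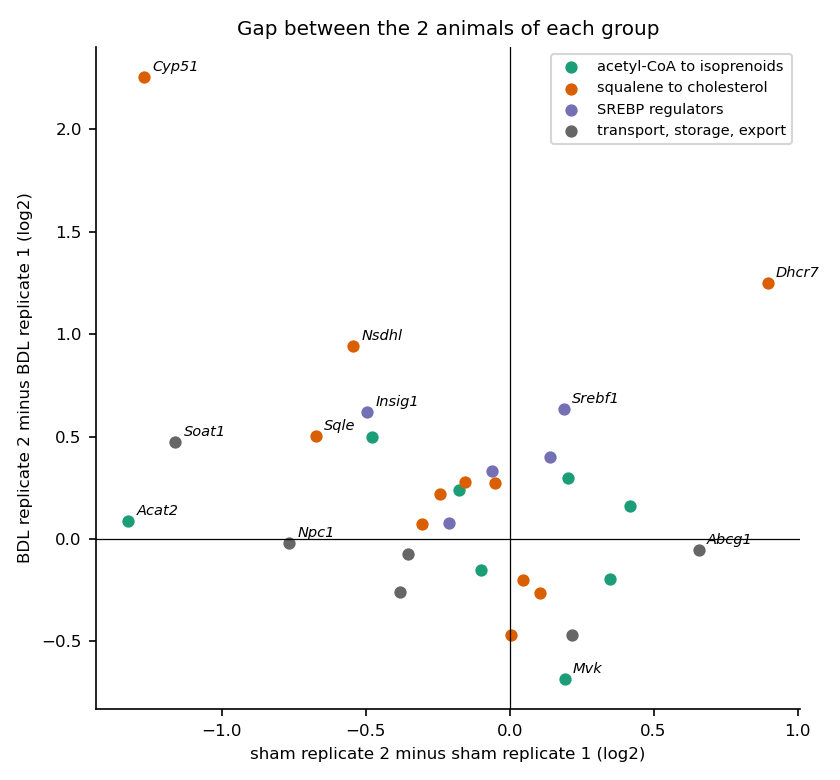
Gap between the 2 animals of each group for the 30 members, with sham replicate 2 minus 1 on the horizontal and BDL replicate 2 minus 1 on the vertical axis, both in log2. Genes in the upper left part, among them Cyp51, Nsdhl, Sqle and Mvd, were higher in sham replicate 1 and in BDL replicate 2, and Dhcr7 lies far to the upper right with 0.90 and 1.25.

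The DNA before the start sites gives further context, since SREBP factors act on sterol response elements beside CCAAT boxes, which NF-Y binds. RefSeq start sites of build GRCm38.p6 were held for 24 of the 30 members, in 32 windows of the 250 bases before a start. Abcg1, Fdft1, Fdps, Npc1, Sqle and Stard4 had no entry, so their promoters were not searched. The letters CCAAT, or ATTGG on the other strand, stood in at least 1 window of 21 of these 24 genes, against 37.5% of all 27025 genes with an entry, and in 22 of the 32 windows, against 33.8% of all 32851 windows. The genes without them were Abca1, Acat2 and Scap. The most boxes in a window, 5, were before Mvk. The element TCACNCCAC, searched on both strands, was found only before Hmgcs1 (1.05% of all windows), and its shorter core TCACCCCA, added after these windows had been seen, before Hmgcs1 and Srebf2 (1.34% of all windows). The E-box CACGTG was in 6 of the 32 member windows against 6.02% of all windows, and the LXR repeat DR4, AGGTCA repeated with NNNN between, in 0 against 0.0152%. The windows were not matched for base composition, and a match is a string of letters, not a measured site.

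Shown are the windows of Hmgcs1 (chr13:119690101-119690350, plus strand), which held the element but was nearly level between the groups, and of 3 members whose groups stood apart, Srebf2 (chr15:82147019-82147268, plus strand), Tm7sf2 (chr19:6067851-6068100, minus strand) and Msmo1 (chr8:64733579-64733828, minus strand). Capitals mark CCAAT boxes on either strand and the TCACCCCA core, which in Hmgcs1 overlaps TCACNCCAC and begins 137 bases before the start, and in Srebf2 162 bases before it.
Hmgcs1: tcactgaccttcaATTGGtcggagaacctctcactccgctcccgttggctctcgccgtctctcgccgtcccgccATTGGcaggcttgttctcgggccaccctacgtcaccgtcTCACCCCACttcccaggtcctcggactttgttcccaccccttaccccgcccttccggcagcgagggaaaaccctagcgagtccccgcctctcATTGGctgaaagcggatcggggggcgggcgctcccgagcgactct
Srebf2: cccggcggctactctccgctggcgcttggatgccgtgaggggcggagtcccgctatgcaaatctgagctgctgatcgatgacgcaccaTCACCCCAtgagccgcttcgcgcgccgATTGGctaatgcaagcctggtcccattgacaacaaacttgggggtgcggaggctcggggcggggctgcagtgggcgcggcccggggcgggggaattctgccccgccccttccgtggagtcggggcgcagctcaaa
Tm7sf2: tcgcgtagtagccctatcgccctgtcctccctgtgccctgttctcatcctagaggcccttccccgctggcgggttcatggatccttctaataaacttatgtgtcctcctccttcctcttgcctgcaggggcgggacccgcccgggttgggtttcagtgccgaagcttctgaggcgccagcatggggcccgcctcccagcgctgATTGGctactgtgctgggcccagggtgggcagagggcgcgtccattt
Msmo1: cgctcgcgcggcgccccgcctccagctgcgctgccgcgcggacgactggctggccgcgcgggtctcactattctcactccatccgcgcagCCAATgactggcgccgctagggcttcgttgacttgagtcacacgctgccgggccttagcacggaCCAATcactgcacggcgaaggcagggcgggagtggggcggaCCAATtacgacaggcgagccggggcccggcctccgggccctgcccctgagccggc
The CCAAT boxes of Hmgcs1 and Msmo1 numbered 3 each, while Srebf2 and Tm7sf2 had 1 each.

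Among the 5 regulators, 3 had the higher mean in BDL, 2 of them without overlap, beside 17.3% of all features. Srebf1, which encodes the SREBP forms that mainly drive fatty acid synthesis, was -1.42 and -1.23 in sham kidneys and -1.14 and -0.51 in BDL kidneys. Srebf2, the main activator of the cholesterol genes, was -0.76 and -0.62 in sham kidneys and -0.54 and -0.14 in BDL kidneys. In both genes the groups did not overlap, yet BDL replicate 1 lay close to the sham animals and BDL replicate 2 clearly above them. The differences were 0.50 for Srebf1 (SE 0.29, limma adjusted p = 0.872) and 0.36 for Srebf2 (SE 0.23, limma adjusted p = 0.875).

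Insig1, a sterol sensor that is itself an SREBP target, was -1.13 and -1.62 in sham kidneys and -1.18 and -0.56 in BDL kidneys. Its difference was of the same size, 0.50 (SE 0.32), but BDL replicate 1 lay between the sham animals. Scap was 5.26 and 5.05 in sham and 4.98 and 5.06 in BDL kidneys, a difference of -0.13 (SE 0.20). In all 5 regulators BDL replicate 2 exceeded BDL replicate 1, as did 50.3% of all features. The median of the regulators, 0.36, was 0.15 without BDL replicate 2 and 0.56 without BDL replicate 1. Without BDL replicate 2 the difference was 0.19 for Srebf1, 0.15 for Srebf2 and 0.19 for Insig1.

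Insig2, whose protein retains Scap as that of Insig1 does, was the only member lower in BDL without overlap, with 3.03 and 2.97 in sham and 2.60 and 2.93 in BDL kidneys (difference -0.24, SE 0.22, limma adjusted p = 0.894). Its probes did not give the same direction. The brighter probe, listed under NM_133748, gave this value, while the probe listed under NM_178082 read 0.96 and 0.83 in sham and 1.21 and 0.99 in BDL kidneys, a difference of 0.21 (SE 0.21). Both accessions are transcripts of the gene in RefSeq. Each probe separated the groups, in opposite directions, by less than the gap between the BDL animals. The mean of both probes gave -0.015, and the brighter probe without BDL replicate 1 gave -0.074.

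In all, 10 members had 2 probes, and in 9 of them both were retained. The exception was Fdft1, whose second probe was well above background on 0 arrays, so its difference rests on the brighter probe alone. The second probe had the same sign as the first in 6 of the 9. For Stard4 it gave the larger difference, with -2.82 and -2.86 in sham kidneys and -1.74 and -1.83 in BDL kidneys. The animals within each group were almost equal and the difference was 1.05 (SE 0.19, limma adjusted p = 0.684 over all 32283 retained probes). The second probe of Pmvk gave 0.84 (SE 0.34), that of Tm7sf2 0.46 (SE 0.29) and that of Srebf2 0.20 (SE 0.19), each without overlap between the groups. The second probe of Ggps1 gave -0.01 (SE 0.22), against 0.43 with the brighter probe, and that of Nsdhl 0.15 against -0.29. Ggps1 separated the groups on its brighter probe and not on the other, whereas Stard4, Pmvk, Tm7sf2 and Srebf2 had it on both.

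**Figure D5:**
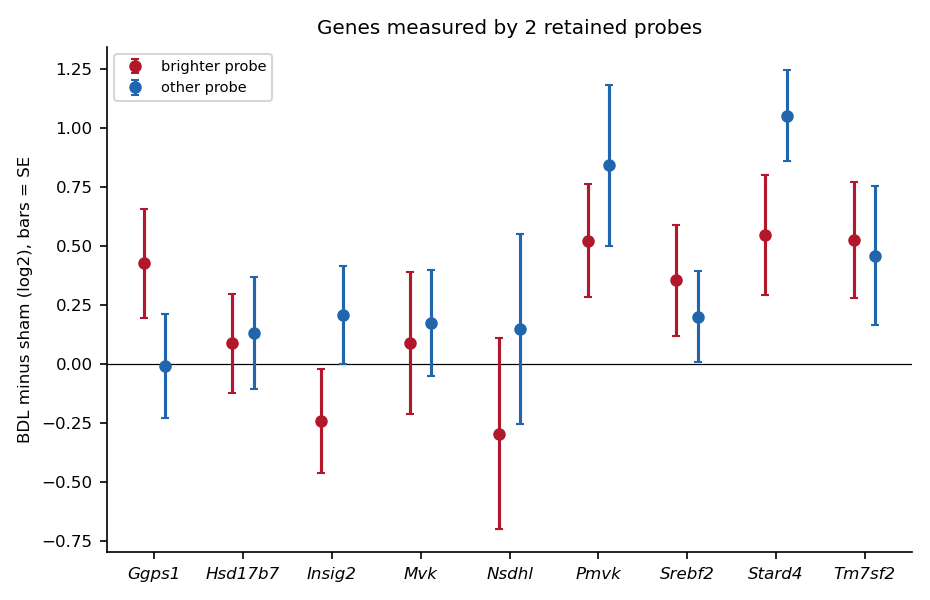
Members measured by 2 retained probes, with BDL minus sham on the log2 scale and SE bars from the limma fit over all retained probes. Both probes lie above 0 for Pmvk, Stard4, Srebf2 and Tm7sf2, and on opposite sides of 0 for Ggps1, Insig2 and Nsdhl.

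Of the 6 genes of sterol transport, storage and export, 5 had the higher mean in BDL and 2 of them did so without overlap, a share of 33.3% beside 17.3% of all features. Stard4, a soluble sterol carrier and SREBP target, was 1.84 and 2.05 in sham kidneys and 2.73 and 2.26 in BDL kidneys on its brighter probe. The difference was 0.55 (SE 0.25, limma adjusted p = 0.872). Npc2, the soluble protein that hands cholesterol to Npc1 in the lysosome, was 3.87 and 3.51 in sham and 4.05 and 3.97 in BDL kidneys, a difference of 0.32 (SE 0.22). Its BDL animals were close together and stood just above sham replicate 1, and without sham replicate 2 the difference was 0.14. Npc1, the membrane partner, differed by -0.18 (SE 0.31), with sham replicate 1 alone high.

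Neither exporter separated the groups. Abca1, which passes cholesterol to lipid-poor apolipoproteins, was 1.01 and 0.63 in sham kidneys and 0.95 and 0.69 in BDL kidneys, and its means were equal to within 0.01 (95% interval -0.63 to 0.64). Abcg1, which passes it to mature lipoproteins, was 0.03 and 0.69 in sham kidneys and 0.54 and 0.48 in BDL kidneys (difference 0.15, SE 0.29). Soat1, the esterifying enzyme, was -0.64 and -1.80 in sham and -1.08 and -0.61 in BDL kidneys (difference 0.38, SE 0.45, and 0.18 with normexp background correction). The median of these 6 genes, 0.23, was -0.02 without sham replicate 2.

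Genes around the pathway were counted as a setting for these values, and none of them passed the threshold in limma. Of 16 genes of SREBP-1-driven fatty acid synthesis, 11 had the higher mean in BDL, 4 of them without overlap (25.0% beside 17.3% of all features), and the median was 0.11. Fasn, fatty acid synthase, differed by 0.63 (SE 0.20, limma adjusted p = 0.860), with -2.10 and -2.24 in sham and -1.62 and -1.45 in BDL kidneys. Fads1, a fatty acid desaturase, differed by 0.57 (SE 0.27) and Me1, which supplies NADPH, by -0.42 (SE 0.25). Fads1 was 0.32 without BDL replicate 2 and Me1 -0.18 without sham replicate 1. Of 8 measured genes of LXR and its targets, 7 had the lower mean in BDL, where 12377 of all 24044 features did. Of these, 3 were lower without overlap where 19.3% of all features were, and the median of the list was -0.16. The list does not hold every LXR target. It leaves out Abca1 and Abcg1, LXR targets among the members, which differed by 0.00038 and 0.15. Srebf1, which differed by 0.50, and the fatty acid synthesis genes were not counted in it either. Nr1h3, which encodes LXR alpha, was 4.54 and 4.53 in sham and 3.80 and 4.34 in BDL kidneys (difference -0.46, SE 0.26). Smpdl3a, a phosphodiesterase, differed by -0.57 (SE 0.35), and Arl4c, a small GTPase, by -1.40 (SE 0.71) with BDL replicate 1 alone far below the rest. Without BDL replicate 1 Arl4c was -0.40 and Nr1h3 -0.20, and without sham replicate 1 Smpdl3a was -0.13. Abcg5 and Abcg8, which form a sterol exporter of liver and intestine, had no retained probe.

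In the branch that uses isoprenoids for prenylation, dolichol and ubiquinone, 9 of 12 genes were lower in BDL and 3 higher, with a median of -0.12. Pdss1, of ubiquinone side chain synthesis, differed by -0.45 (SE 0.28), Coq2, which attaches that chain, by -0.31 (SE 0.23) and Pggt1b, a subunit of a prenyltransferase, by 0.27 (SE 0.19). Pdss1 was -0.19 without BDL replicate 1 and Coq2 -0.14 without sham replicate 1. Of 10 genes for SREBP processing and sterol-regulated protein degradation, 8 were lower and 2 higher, with a median of -0.07. Spring1, which SREBP signalling needs, differed by 0.37 (SE 0.19), Mbtps1, the protease that makes the initial cut in SREBP, by -0.26 (SE 0.19) and the ubiquitin ligase gene Rnf145 by -0.21 (SE 0.21). Mbtps1 was -0.090 with the mean of its retained probes, and Rnf145 -0.095 without sham replicate 1 and -0.098 without BDL replicate 1. Among 16 lipoprotein receptor and sterol carrier genes 8 were higher and 8 lower.

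In that last list Soat2, the cholesterol esterifying enzyme best known from intestine and liver, was -4.48 and -4.26 in sham kidneys and -3.58 and -3.49 in BDL kidneys, dim but well above background on all 4. Its difference was 0.84, or 1.78-fold (SE 0.20, limma adjusted p = 0.761), and with normexp background correction it was 0.30. Gramd1b, a carrier that moves cholesterol from the plasma membrane to the endoplasmic reticulum, was 3.28 and 3.45 in sham and 2.34 and 2.86 in BDL kidneys (difference -0.76, SE 0.26, limma adjusted p = 0.872). Osbpl9, an oxysterol-binding protein relative, differed by 0.47 (SE 0.22), and by 0.31 without BDL replicate 2. Gramd1b was -0.50 without BDL replicate 1. For Soat2 and Gramd1b the group means were further apart than the animals within either group.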

How the data were processed

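Per the labels' protocols, total RNA of 4 mouse kidneys was labelled with Cy3 and hybridised to 1-colour arrays, and the submitters' processing notes name Agilent Feature Extraction 11.0.1.1. Per the file headers, processed signals are intensities from which the background had been subtracted and a spatial trend removed within the array. Other deposited columns used were raw median intensities and flags. The authors' deposited value table is an intensity too. A column equals the processed signal over a single constant (709 and 844.4 for sham, 738.5 and 939.8 for BDL). Its column medians lay between 0.328 and 0.339, its scale is linear and its genes are not centred. The constants lie close to the 75th percentiles of the arrays (711.8 and 849.5 for sham, 740.9 and 944.9 for BDL). The scaling of that table is thus nearly that of the main values, while the exact quantity behind the constants stays unknown.

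The log2 processed signal was set relative to the 75th percentile over the probes of each array (711.8 and 849.5 signal units for sham, 740.9 and 944.9 for BDL). Control and outlier spots were left out, 0 spots were saturated, and spots of 1 probe were averaged. Accessions were matched without versions to a RefSeq table of GRCm38.p6, used for names only since the array grid lists mm9, which named 27229 of 55668 probes. Retained were probes well above background throughout 1 group or both (32283), and the brightest stood for its gene (24044 features). On the arrays 57.7% to 63.1% of spots were well above background, and pairwise correlations across features ran from 0.974 to 0.985. The number of arrays limits the precision.

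Differences between the groups were fitted by limma 3.58.1 (R 4.3.3), with Benjamini-Hochberg adjustment over all features. The same fit was also run on simulated arrays. Their values were drawn independently for each feature, so that run does not cover shifts shared by many genes of a single array. With 2 animals a group, the smallest two-sided p of an exact permutation test is 0.333, so none was run. The members and lists were chosen with earlier results of these data known, and the promoter motifs with the expression values known. The rule for naming was all members, with values on every array for those whose groups lay apart and for the regulators, and up to 3 genes of each other list with the smallest p. Values on every array for further members were added after they had been seen. Of the marker genes, Cd68 and Mx1 matched no named probe.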

Additional observations from a re-analysis of the deposited data

How the results depend on the processing

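The count of 0 features past the threshold held under all 12 alternatives run, and 0 member values passed in any of them (smallest adjusted p = 0.419). Of the 30 members, 16 had the same sign under every alternative. For the 13 whose groups did not overlap, leaving out an array cannot turn the sign, and the replicate block leaves the difference as it is. With normexp background correction on median spot signals, since the files used hold no mean signal, the difference of Hmgcs1 was -0.058 and that of Abca1 -0.022. In the authors' deposited table, which gave values for 28 members and none for Cyp51 and Dhcr7, Abca1 was -0.00058 and the median of the synthesis enzymes 0.22. The other enzymes were nearly unchanged there, as in Ebp (0.2208 against 0.2217 in the main fit), so that median moved because Cyp51 and Dhcr7 were absent. Members higher without overlap numbered 12 under each alternative that used all 4 arrays. The changed filters on dim probes, the replicate block and the array weights left every member difference as it was, so they could not alter this count. The deposited table, scaled nearly like the main values, could hardly alter it. Leaving out 1 array in turn gave 13 to 19 of them, where fewer arrays make separation easier (28.6% to 35.8% of all features). Members lower without overlap, 1 in the main fit, numbered 0 with normexp correction or the mean of retained probes and 2 with quantile normalization. With 1 array left out there were 2 to 9 of these, and the share of all features lower without overlap was not counted under the alternatives. Leaving out 1 array in turn also gave medians of 0.13 to 0.28 for the synthesis enzymes and of -0.024 to 0.32 for the transport genes. In the same refits, in which a lone array is assumed to vary like the others, the difference ranged from -0.43 to 0.90 for Acat2, -0.11 to 0.13 for Hmgcs1, -0.25 to 0.43 for Mvk, -0.49 to 0.014 for Mvd, -0.40 to 0.27 for Sqle, -1.13 to 1.13 for Cyp51, -0.77 to 0.18 for Nsdhl, -0.048 to 0.23 for Hsd17b7, -0.22 to 0.085 for Sc5d, -0.77 to 0.48 for Dhcr7, -0.57 to 0.20 for Npc1, -0.20 to 0.96 for Soat1, -0.19 to 0.19 for Abca1 and -0.18 to 0.48 for Abcg1. With the replicate number as a block, 0 features passed and the members' median was 0.19. The deviations of same-numbered arrays were barely correlated across features (0.0632), and no label says that the numbers pair animals. No block for slide or scan time was run, since the arrays shared both. The causes of the other shifts were not tested.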
